A study of Bos taurus with 47 samples.

Results

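The ovary and the uterus of the same 2 cows were compared gene by gene. The members of the comparison are the 2 libraries labelled ovary and the 2 labelled uterus, 4 of the 47 RNA-seq libraries of the series, paired by the animal number in their titles. Among 12814 genes tested, out of 24616 identifiers, 142 were at least 2 higher in ovary than in uterus in both cows on the scale of log2(FPKM + 1), and 165 were at least 2 higher in uterus in both cows. A difference of 2 on this scale is 4-fold on FPKM + 1. FPKM is a transcript level per kilobase and per 1000000 sequenced fragments, so levels can be compared between genes. A gene was tested when at least 2 of the 4 libraries reached 1 FPKM. How far the ovaries of the 2 cows differed from each other is given separately after the comparison of the organs.

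The series surveyed gene expression across 15 tissue labels in Holstein cattle. All 4 libraries came from Holstein females, with an ovary and a uterus library from each of 2 animals. The lactating mammary gland of the series was taken from one of them and the dry gland from the other, and the animals are called the lactating cow and the dry cow here. The labels state no treatment, age, pregnancy, or stage of the ovary or the uterus. Each organ therefore has n = 2 cows, with 1 library per cow and organ.

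The ovary holds oocytes inside follicles, whose granulosa and theca cells make steroid hormones. After ovulation the emptied follicle becomes the corpus luteum, a short-lived gland that secretes progesterone, so the makeup of an ovary changes through each oestrous cycle. The uterus is a tube of smooth muscle, the myometrium, lined by a glandular mucosa, the endometrium, and it responds to the steroids of the ovary. The deposited identifiers carry no gene names and none could be matched to a name, so markers of these cells could not be read and genes are described by their levels and by the tissues that express them. In bulk tissue, fewer cells of a type and less RNA per cell cannot be told apart.

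The 4 libraries were alike in their totals. Summed FPKM was 710465 and 779249 in the ovaries of the lactating and the dry cow, against 722524 and 772193 in their uteri. The number of genes at 1 FPKM or more was 11832 and 12749 in the ovaries, against 12375 and 12655 in the uteri. These 4 libraries stood apart by cow in traces of genes that belong to other organs. Genes with at least 2000 FPKM in liver, rumen or muscle and at least 100 times less in every other label were followed as a share of their level in that organ, per 1000000 (ppm). The median over 18 liver genes was 0 in the ovary of the lactating cow and 97.9 in that of the dry cow, against 0 and 86.2 in the uteri. Over 10 rumen genes it was 0 and 240.3 in the ovaries, against 0 and 264.04 in the uteri. For liver and rumen genes the organs of a cow thus held similar trace levels, while both dry-cow libraries lay above both lactating-cow libraries. This split did not hold in every tissue, as the lactating cow's rumen and muscle held the liver genes at 517.0 and 444.9 ppm. Traces of lactating-gland genes, given with the ovary results, were about 10 times higher in the dry cow's ovary than in her uterus.

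Genes past 2 in both cows made up 1.11% of the genes tested on the ovary side and 1.29% on the uterus side, 2.4% in all. The ovary-high genes were the more abundant group. Their median level was 53.2 FPKM in the ovary of the lactating cow and 33.1 FPKM in that of the dry cow, against 1.73 and 2.71 FPKM in the uteri. Together they held 9.13% and 2.55% of the summed FPKM of the ovaries, against 0.121% and 0.110% of that of the uteri. The uterus-high genes had a median of 0.664 FPKM in the ovary of the lactating cow and 2.32 FPKM in that of the dry cow, against 21.8 and 24.2 FPKM in the uteri. They held 0.0837% and 0.210% of the summed FPKM of the ovaries, against 3.03% and 2.05% of that of the uteri. The rule fixes the direction of these differences, so they describe the sets and test nothing.

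**Figure D1:**
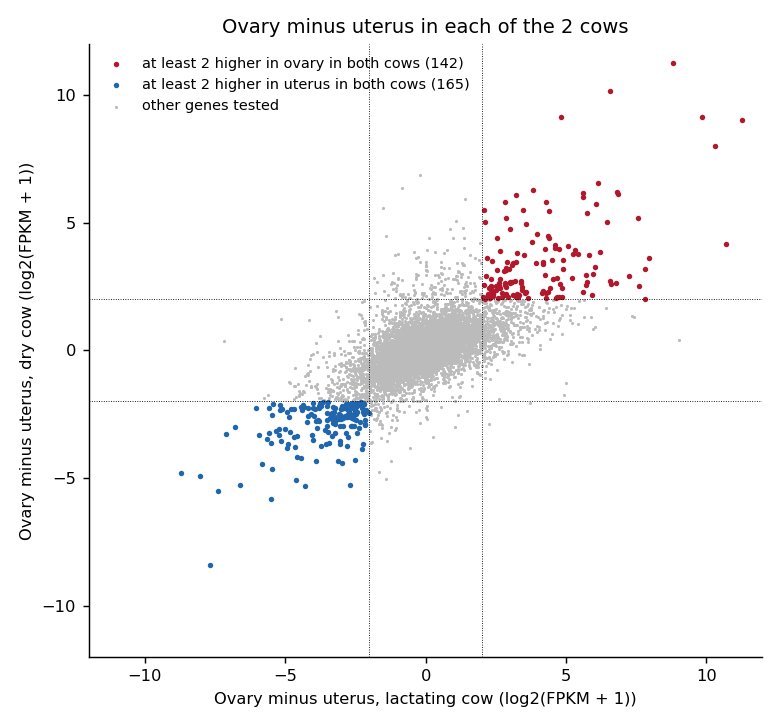
Ovary minus uterus on the log2(FPKM + 1) scale for each gene tested, with the lactating cow on the horizontal and the dry cow on the vertical axis; dotted lines mark a difference of 2 in either direction. The 142 red genes lie past 2 toward ovary in both cows and the 165 blue genes past 2 toward uterus, and the cloud is wider in the lactating cow (SD 1.27) than in the dry cow (SD 0.91).

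The difference between the organs was larger in the lactating cow. Over all 24616 identifiers, 633 genes there were past 2 toward ovary and 576 toward uterus, against 373 and 250 in the dry cow. Over all genes tested the SD of the difference was 1.27 in the lactating cow and 0.91 in the dry cow, around medians of -0.08 and 0.10. Of the 142 ovary-high genes 96 differed more in the lactating cow and 46 more in the dry cow, with median differences of 3.62 and 2.83. Of the 165 uterus-high genes 123 differed more in the lactating cow and 42 more in the dry cow, with medians of -3.29 and -2.61. With 1 library per cow and organ, this contrast between the cows has no replicate and was not tested.

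Most genes past 2 in one cow alone leaned the same way in the other. Of 491 genes past 2 toward ovary in the lactating cow only, 432 were also higher in ovary in the dry cow and 56 were lower, with a median of 0.84. Of 411 genes past 2 toward uterus in the lactating cow only, 363 were also higher in uterus in the dry cow and 41 were lower. The 231 genes past 2 toward ovary in the dry cow only were less even, with 152 leaning the same way in the lactating cow, 64 the other way and a median of 0.33. Of 85 genes past 2 toward uterus in the dry cow only, 70 leaned the same way and 14 the other way. Across the genes tested, the differences of the 2 cows had a Pearson correlation of 0.63 and a Spearman correlation of 0.57, a description across genes that share libraries and are not replicates.

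The comparison was then tested over all genes with limma on log2(FPKM + 1). It used the 47 libraries of the series, so that the 15 labels share 1 estimate of the spread. No term for the cow was fitted, and that estimate rests mostly on the other labels. Between the 2 cows the SD over genes was 0.97 in ovary and 0.63 in uterus, against 0.34 to 0.55 in the 10 tissues with 4 libraries. The SE and adjusted p of this fit can therefore be too small for ovary and uterus. At a Benjamini-Hochberg adjusted p under 0.05 and a difference of at least 2, limma called 342 genes higher in ovary (2.67% of those tested) and 331 higher in uterus (2.58%). The calls include 141 of the 142 ovary-high genes and 165 of the 165 uterus-high genes, which rest on the same 4 libraries and are no independent evidence. The exception had 19.6 and 10.5 FPKM in the ovaries, against 3.32 and 1.10 FPKM in the uteri, and a limma adjusted p of 0.0627. Another 201 calls toward ovary and 166 toward uterus did not reach 2 in both cows. Without the dry cow the calls were 578 toward ovary and 544 toward uterus, and the lone library of each organ was then assumed to vary like those of the other labels.

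Fewer genes were called when the other tissues were left out of the fit. In the 4 libraries alone, limma called 34 genes higher in ovary (0.265%) and 40 higher in uterus (0.312%), and every one of them was past 2 in both cows. With the cow as a block in the same 4 libraries the calls were 107 toward ovary (0.835%) and 136 toward uterus (1.06%), of which 104 and 131 were past 2 in both cows. An exact permutation test of 1 gene in 2 against 2 libraries cannot give a two-sided p below 0.333. Both ovaries lay above both uteri in 29% of the genes tested and below both in 24.1%, so lack of overlap alone is common here.

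Among the ovary-high genes, 52 were past 3 and 23 past 4 in both cows. The gene ranked first by the smaller of its differences, ENSBTAG00000006934, had 5881 FPKM in the ovary of the lactating cow and 669 FPKM in that of the dry cow, against 5.33 and 0.176 FPKM in the uteri. Both ovaries lay far above both uteri, and the ovary of the lactating cow was the higher one. The difference was 9.51 ± 0.71 (SE) by limma over 47 libraries, with an adjusted p of 3.110e-13, and in the 4 libraries alone the adjusted p was 0.0649 without and 0.00845 with the cow as a block. Outside the 2 organs this gene was highest in the dry mammary gland, at 148 FPKM, and 6 of the 13 other labels reached 1 FPKM.

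ENSBTAG00000021516 ranked next. It had 7009 and 1912 FPKM in the ovaries of the lactating and the dry cow, against 1.80 and 2.67 FPKM in the uteri, with a limma difference of 10.16 ± 0.82 (SE) and an adjusted p of 2.196e-12. In the 4 libraries alone the limma adjusted p was 0.0265 without and 0.00969 with the cow as a block. The ovaries did not overlap the uteri. All 13 other labels held it at 1 FPKM or more, and liver was the highest at 1952 FPKM, about the level of the ovary of the dry cow.

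The genes ranked below these were of 2 kinds, some even between the ovaries and some not. The third-ranked gene had 718 and 3564 FPKM in the ovaries, against 0.618 and 0.443 FPKM in the uteri, and reached no more than 5.06 FPKM elsewhere, in ileum. Here the ovary of the dry cow was the higher one. The fourth-ranked gene had 7840 and 383 FPKM in the ovaries, against 5.18 and 0.509 FPKM in the uteri, and the fifth-ranked had 109 and 1803 FPKM, against 0.159 and 0.576 FPKM. These lean in opposite directions between the cows, yet in each the lower ovary stood far above the higher uterus. The seventh-ranked gene was even, with 69.5 and 92.7 FPKM in the ovaries, while both uteri were listed at 0. Ranked 17, another even gene had 20.4 FPKM in each ovary, against 0.0122 and 0.00987 FPKM in the uteri. None of the 13 other labels held that gene above 0.591 FPKM.

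At the threshold, the ovary-high gene with the smallest difference had 233 and 3.71 FPKM in the ovaries, against 0.0508 and 0.166 FPKM in the uteri, so the dry cow's 2.01 decided its place. The first gene left out had 20.2 and 11.1 FPKM in the ovaries, against 1.95 and 2.05 FPKM in the uteri, with a smaller difference of 1.99. On the uterus side the smallest difference inside was -2.01. The first gene outside fell just short of -2 in the dry cow, with 1.19 and 2.12 FPKM in the ovaries, against 8.63 and 11.5 FPKM in the uteri. Those left out just beyond the limit thus differ in the same direction as those inside.

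**Figure D2:**
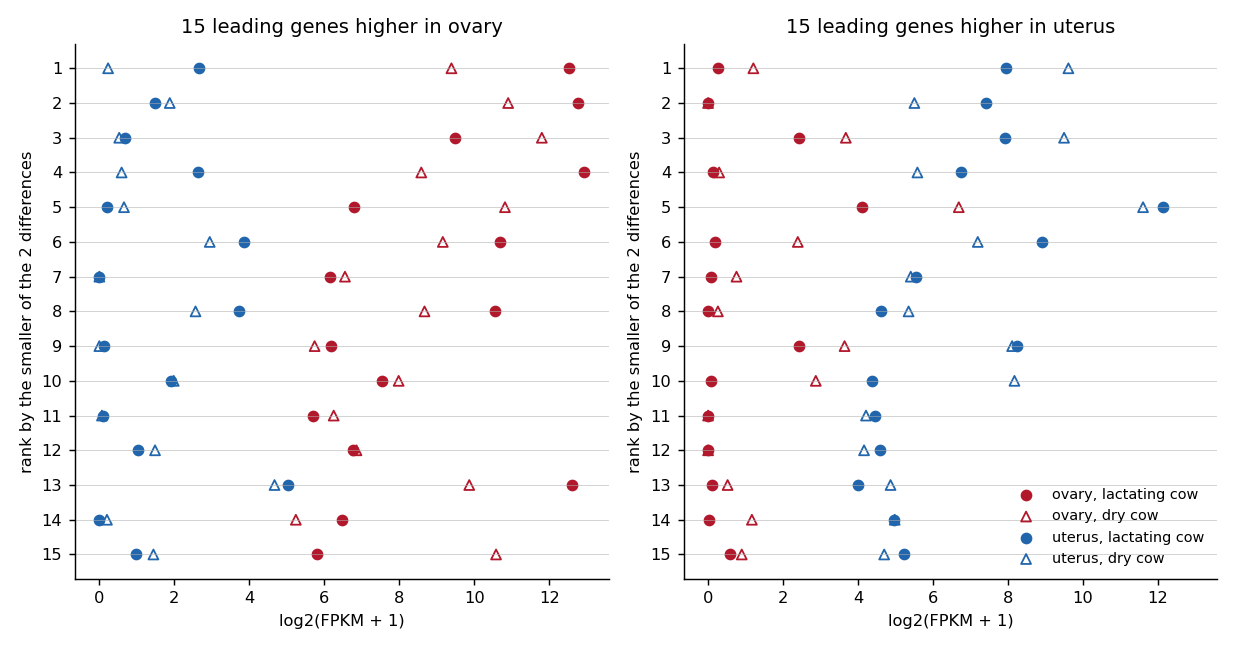
The 15 leading genes in each direction, ranked by the smaller of the differences in the 2 cows, with the level in each of the 4 libraries as log2(FPKM + 1) on the horizontal axis. Ovaries are red and uteri blue, filled circles are the lactating cow and open triangles the dry cow; in every row both libraries of one organ lie beyond both of the other, and the gap between the 2 red marks is often wide, as in the fifth-ranked ovary gene at 109 and 1803 FPKM.

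Among the uterus-high genes, 43 were past 3 and 12 past 4 in both cows. The first-ranked, ENSBTAG00000004796, had 0.210 and 1.31 FPKM in the ovaries of the lactating and the dry cow, against 244 and 780 FPKM in the uteri. The uterus of the dry cow was the highest of the 4 libraries, and the organs did not overlap. By limma over 47 libraries the difference was -8.03 ± 0.40 (SE), with an adjusted p of 3.226e-18. In the 4 libraries alone the limma adjusted p was 0.0327 without and 0.00969 with the cow as a block. Among the other labels kidney held it at 601 FPKM, within the range of the uteri, and 7 of 13 reached 1 FPKM.

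ENSBTAG00000014738 was listed at 0 in both ovaries, against 168 and 44.3 FPKM in the uteri. The uterus of the lactating cow was the higher one. Its limma difference over 47 libraries was -6.45 ± 0.24 (SE), with an adjusted p of 6.277e-22. That SE rests mostly on the other labels, while the difference was -7.40 in the lactating cow and -5.50 in the dry cow. In the 4 libraries alone the limma adjusted p was 0.0464 without and 0.0201 with the cow as a block. Kidney was the one other label to reach 1 FPKM, at 1.45 FPKM, so this transcript was nearly limited to the uterus among the 15 labels sampled.

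The uterus-high genes below these included abundant and scarce transcripts. The third-ranked had 4.34 and 11.8 FPKM in the ovaries, against 240 and 719 FPKM in the uteri, and stood at 98.3 FPKM in adipose tissue. The fifth-ranked had 16.1 and 102 FPKM in the ovaries, against 4510 and 3102 FPKM in the uteri, and all 13 other labels held it, muscle at 4063 FPKM. Muscle thus matched the uteri in that gene, and the ovaries were low. The eighth-ranked was listed at 0 and had 0.199 FPKM in the ovaries, against 23.4 and 39.7 FPKM in the uteri, and no other label held more than 0.687 FPKM. The tenth-ranked had 0.0476 and 6.32 FPKM in the ovaries, against 19.7 and 287 FPKM in the uteri, so the uterus of the lactating cow was nearer to the ovary of the dry cow than to the other uterus.

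Between the uteri, 108 of the 165 uterus-high genes (65.5%) were less than 1 apart and 156 (94.5%) less than 2, against 91.3% and 98.7% of all 13055 genes at 1 FPKM or more in either uterus. Another 5 were at least 2 higher in the lactating cow and 4 in the dry cow. Between the ovaries, 67 of the 142 ovary-high genes (47.2%) were less than 1 apart and 98 (69%) less than 2, against 78% and 95.1% of the 13065 genes at 1 FPKM or more in either ovary. Both sets were thus less even between the cows than genes at large. The rule used these same libraries, and the log2(FPKM + 1) scale narrows the differences of low genes. The contrast therefore describes the sets and tests nothing. Of the ovary-high genes, 33 were at least 2 higher in the lactating cow's ovary and 11 in the dry cow's. In the ovaries, 24 of the uterus-high genes were at least 2 higher in the dry cow and none at least 2 higher in the lactating cow. Over the 13065 genes, 2.92% were at least 2 higher in the dry cow's ovary and 1.94% in the lactating cow's. The rule used these ovary values, so the counts are no independent evidence. The median difference of the uterus-high genes between the ovaries was -0.68. The median over all genes at 1 FPKM or more in either ovary was -0.15.

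Some genes of either set were close to unmeasured in the other organ. Of the ovary-high genes, 40 were under 1 FPKM in both uteri and 7 were listed at 0 in both. Of the uterus-high genes, 54 were under 1 FPKM in both ovaries and 8 were listed at 0 in both. The level in the home organ also differed between the sets. A mean of 100 FPKM or more was reached by 46 ovary-high genes in ovary and by 30 uterus-high genes in uterus, while 8 and 38 had a mean under 10 FPKM.

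Levels in the 43 libraries of the 13 other labels were not used by the rule. Genes of both sets were expressed in fewer of these labels than genes at large. A median of 9 labels reached 1 FPKM for the ovary-high genes and of 8 for the uterus-high genes, while the median over all genes tested was 13. All 13 labels reached 1 FPKM for 28.2% of the ovary-high genes and 11.5% of the uterus-high genes, and for 61.1% of the genes tested. No other label reached 1 FPKM for 5 ovary-high genes (3.52%) and 2 uterus-high genes (1.21%), and for 50 of the 12814 genes tested. Restriction to 1 organ was therefore rare even here. Some other label exceeded the ovary mean for 65 of the 142 ovary-high genes and exceeded the uterus mean for 104 of the 165 uterus-high genes. Ovary was the highest of the 15 labels for the other 77 (54.2%), against 6.27% of the genes tested. Uterus was the highest for the other 61 (37%), against 6.56% of the genes tested. The rule places each set above the other organ, so these shares are in part fixed by it.

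The label that came highest outside ovary and uterus differed between the sets. For uterus-high genes it was adipose tissue in 33 (20%), frontal cortex in 32 (19.4%) and kidney in 22 (13.3%). The same labels were highest for 4.82%, 17.3% and 10% of the genes tested. For ovary-high genes it was frontal cortex in 23 (16.2%), liver in 17 (12%) and kidney in 13 (9.15%), and liver was highest for 3.15% of the genes tested. Lymphocytes were highest for 8 ovary-high genes (5.63%) and 5 uterus-high genes (3.03%), although they were highest for 23.3% of the genes tested. These shares are descriptions and were not tested.

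**Figure D3:**
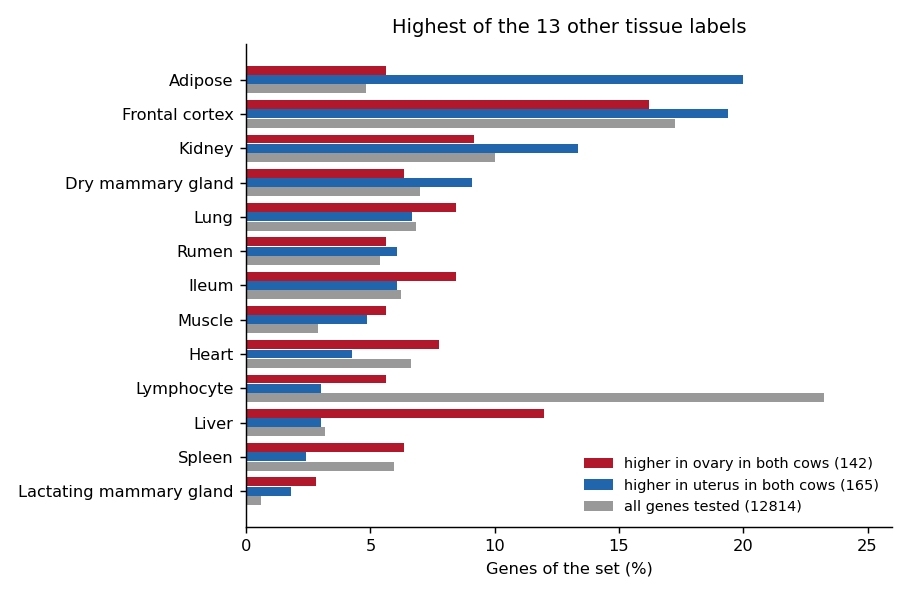
Share of genes, in percent, for which each of the 13 other tissue labels had the highest mean FPKM, for the 142 ovary-high genes (red), the 165 uterus-high genes (blue) and the 12814 genes tested (grey). Adipose tissue leads the uterus-high genes at 20%, liver has 12% of the ovary-high genes against 3.15% of the genes tested, and lymphocytes have 5.63% and 3.03% of the sets against 23.3% of the genes tested.

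The 17 ovary-high genes with liver next ranged widely in level. One had 1458 and 233 FPKM in the ovaries of the lactating and the dry cow, against 24.9 and 16.8 FPKM in the uteri and 213.2 FPKM in liver. Another had 41.1 and 62.0 FPKM in the ovaries, against 3.56 and 4.74 FPKM in the uteri and 1003 FPKM in liver. The ovaries lay above the uteri in both genes, with liver below the ovaries in one and above them in the other. A gene with 4.80 and 22.8 FPKM in the ovaries, against 0 and 0.121 FPKM in the uteri, had 4343 FPKM in liver. It is one of 2 ovary-high genes for which another label was at least 100 times above the higher ovary, and no uterus-high gene was of that kind. Of the 17 genes, 13 differed more in the lactating cow, as did 96 of all 142 ovary-high genes. Traces of the 18 liver genes were at 0 in both organs of that cow, and their part in these levels was not tested.

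Groups of genes defined by the 13 other labels alone were counted among the members. A gene was assigned to a label when its mean there was at least 1 FPKM and at least 4 times that of each of the other 12. Of 67 adipose genes tested, 1 was ovary-high and 8 were uterus-high (11.9%, against 1.29% of the genes tested), with a median ovary minus uterus of -0.68 in the lactating cow and -0.64 in the dry cow. Of 68 liver genes, 4 were ovary-high (5.88%, against 1.11%) and 0 uterus-high, with medians of 0.89 in the lactating cow and 0.15 in the dry cow. By limma over 47 libraries 17 of the 68 were called higher in ovary and 0 in uterus, against 2.67% and 2.58% of the genes tested. The ovary-high share was above 1.11% in all 13 groups, so it was not particular to liver genes. It ran from 1.49% of the adipose genes to 6.25% of the lactating-gland genes, the latter being 1 of 16. Adipose genes thus leaned to uterus about equally in both cows, and liver genes leaned to ovary mainly in the lactating cow.

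Frontal cortex genes were the largest group. Of 418 frontal cortex genes tested, 9 were ovary-high (2.15%) and 19 uterus-high (4.55%), with medians of -0.41 in the lactating cow and 0.01 in the dry cow. Of 81 kidney genes, 4 were ovary-high (4.94%) and 5 uterus-high (6.17%). Of 53 heart genes, 3 were ovary-high (5.66%) and 1 was uterus-high (1.89%). Spleen, lung and lymphocyte genes included 2, 1 and 2 ovary-high genes among 54, 54 and 44 tested (3.70%, 1.85% and 4.55%, against 1.11% of the genes tested). They held no uterus-high gene. As 1.29% of the genes tested were uterus-high, few would fall in groups of this size.

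The organs went in opposite directions in 2 genes, which were at least 2 higher in ovary in the lactating cow and at least 2 higher in uterus in the dry cow. One had 10.5 and 4.93 FPKM in the ovaries, against 1.43 and 42.3 FPKM in the uteri, and stood at 102.0 FPKM in spleen. Its extreme libraries were the 2 uteri. The other had 15.2 and 0 FPKM in the ovaries, against 0.242 and 3.17 FPKM in the uteri, and stood at 40.8 FPKM in the dry mammary gland. No gene did the reverse.

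The ovaries were then set against each other. Over 13065 genes that reached 1 FPKM in one or both ovaries, 254 (1.94%) were at least 2 higher in the lactating cow and 381 (2.92%) at least 2 higher in the dry cow. The SD of the difference, lactating minus dry, was 0.97 and its median was -0.15. At a difference of 1 the counts were 1019 and 1858. Each ovary is 1 library, so no test was possible within the organ. Cow, mammary state, the stage of the ovary and the handling of the library cannot be told apart.

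Of the 12 labels sampled in both cows, ovary had the most genes apart. The uterus had 84 genes at least 2 higher in the lactating cow and 80 in the dry cow, an SD of 0.63 and a Spearman correlation of 0.943 across genes, while the ovaries correlated at 0.885. Spleen had 86 such genes in both directions together, ileum 68, kidney 56, lung 53, adipose tissue 44, frontal cortex 31, liver 29, heart 25, rumen 21 and muscle 18. The SD lay between 0.34 and 0.55 in these 10 tissues, and the Spearman correlations between 0.953 and 0.980. The ovary's 635 genes are thus followed at a distance by the 164 of the uterus.

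**Figure D4:**
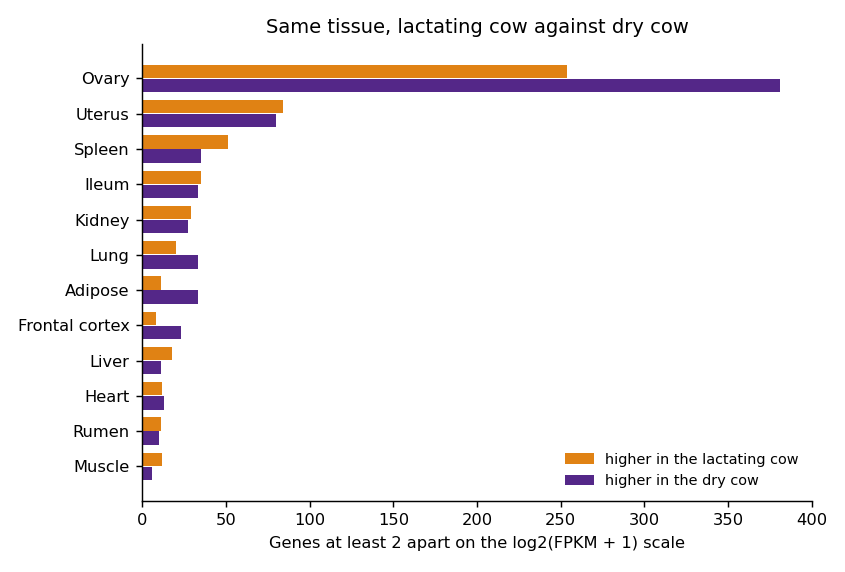
Number of genes at least 2 apart on the log2(FPKM + 1) scale between the lactating and the dry cow in each of the 12 tissue labels sampled in both, over genes that reached 1 FPKM in one or both libraries. Ovary has 254 genes higher in the lactating cow (orange) and 381 higher in the dry cow (purple), uterus has 84 and 80, and muscle, at the foot, has 12 and 6.

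The distance between the ovaries was of the order of the distance between the organs. Over all 24616 identifiers, the ovaries were 2 apart in 635 genes, and the ovary and uterus of the dry cow in 623. The ovary and uterus of the lactating cow were 2 apart in 1209 genes. Across the 12814 genes tested, the ovary of the dry cow had a Spearman correlation of 0.896 with the other ovary, 0.874 with its own uterus and 0.852 with the uterus of the lactating cow. The ovary of the lactating cow correlated at 0.807 with its own uterus and at 0.802 with that of the dry cow. The ovary of the dry cow was thus the nearer of the 2 to either uterus.

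Of the 254 genes higher in the lactating cow's ovary, 230 (90.6%) were past 2 between the cows, in either direction, in none of the 11 other labels, and of the 381 higher in the dry cow's ovary 338 (88.7%). The share over the 13065 genes was 98%, so genes apart in the ovaries were past 2 elsewhere more often than genes at large, although most were not. In uterus, 15 of the 254 were past 2 in the same direction and 2 in the opposite one, and of the 381, 26 and 3. Genes past 2 in the same direction in 3 or more other labels numbered 3 of the 254 and 15 of the 381.

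The genes high in the lactating cow's ovary included some of its most abundant transcripts. The largest difference, 8.51, belonged to a gene with 792 FPKM in the lactating cow's ovary and 1.18 FPKM in the dry cow's. In the uteri it had 0.535 and 0.660 FPKM, and liver held it at 6157 FPKM. The next had 347 and 0.971 FPKM in the ovaries, and outside ovary and uterus it reached no more than 0.0882 FPKM. The third had 9492 and 121 FPKM, against 4.64 and 5.84 FPKM in the uteri, so both ovaries lay above both uteri and it is also an ovary-high gene. The fourth had 1046 and 14.9 FPKM in the ovaries, against 5.15 and 5.42 FPKM in the uteri, and 588 FPKM in adipose tissue. In all 4 the uteri of the cows were close to each other.

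The order of the dry cow's ovary opened with genes of the lactating mammary gland. The 7 leading genes of that gland, at 28404 to 157804 FPKM there, were listed at 0 in the lactating cow's ovary and had 35.7 to 238.9 FPKM in the dry cow's. In uterus they were listed at 0 in the lactating cow and had 3.71 to 23.4 FPKM in the dry cow. Their median in the dry cow's ovary was 1405 ppm of the gland's level, and in her uterus 140.4. In the 10 other tissues she shares with the lactating cow it lay between 0, in liver, and 176.4, in spleen. In the lactating cow the median was 474.06 in liver, 255.14 in rumen and 213.45 in muscle, and 0 in the other shared tissues. These traces thus did not follow the cow in every tissue. The part of such traces in the ovary difference was not tested, but 23 of the 381 genes and 1 of the 254 were at least 100 times higher in another label than in the higher ovary, and without them 358 and 253 remained.

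Genes with no such source also stood high in the dry cow's ovary. One had 0.331 and 110 FPKM in the ovaries of the lactating and the dry cow and was listed at 0 in both uteri, with 22.5 FPKM in frontal cortex. Another had 1.65 and 177 FPKM in the ovaries, against 3.74 and 1.15 FPKM in the uteri, and no more than 1.63 FPKM elsewhere. One more had 1.85 and 185 FPKM in the ovaries, against 7.12 and 2.89 FPKM in the uteri, and no more than 3.26 FPKM elsewhere. In the last 2 genes the lactating cow's ovary lay below its own uterus.

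The directions also differed in where the low ovary stood relative to the uteri. Of the 254 genes, 193 were at least 2 above both uteri in the lactating cow's ovary, and 7 were at least 2 below both uteri in the dry cow's. Of the 381 genes, 152 were at least 2 above both uteri in the dry cow's ovary, and 71 were at least 2 below both uteri in the lactating cow's. The sets were chosen by the gap between these ovaries, so these counts are in part fixed and test nothing. No share over all genes stands beside them. The lower ovary was under 1 FPKM for 53 of the 254 and 169 of the 381, and listed at 0 for 11 and 36. The 254 genes include 33 that were ovary-high in both cows and no uterus-high gene, and the 381 include 11 ovary-high and 24 uterus-high genes. Of all genes tested 1.11% were ovary-high and 1.29% uterus-high, and these sets rest on the same ovary libraries.

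Liver was frequent as the next tissue on one side and ileum on the other. Liver was the highest other label for 55 of the 254 genes (21.7%), followed by frontal cortex for 37 (14.6%) and kidney for 30 (11.8%). Of all 13065 genes, liver was highest for 3.24%, frontal cortex for 17.2% and kidney for 9.86%. Ileum was highest for 92 of the 381 genes (24.1%), while it was highest for 6.85% of the 13065. Frontal cortex followed with 53 (13.9%), adipose tissue with 37 (9.71%) and spleen with 33 (8.66%). Adipose tissue was highest for 4.68% of the 13065 and spleen for 6.06%. Frontal cortex was thus below its share of all genes on both sides. Of 80 liver genes, as assigned above, 20 (25%) were at least 2 higher in the lactating cow's ovary and 5 in the dry cow's, against 1.94% and 2.92% of the 13065 genes. Of 18 lactating-gland genes 2 and 9 (50%) were so, of 57 spleen genes 0 and 9, of 47 ileum genes 2 and 7, and of 61 muscle genes 3 and 9. Traces of liver genes were at 0 in the lactating cow's ovary and at 97.9 ppm in the dry cow's. The 7 leading genes of the lactating gland, at a median of 1405 ppm in the dry cow's ovary, were all past 2 toward it. The part of these traces in the counts was not tested.

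Genes enriched in one of the organs were also set between the cows. Genes with a mean of at least 1 FPKM in ovary and at least 4 times that of each of the 14 other labels numbered 74, and 41 of them are ovary-high genes. They held 9.08% of the FPKM of the lactating cow's ovary and 1.78% of that of the dry cow's, against 0.166% and 0.179% of the uteri. Of the 74, 28 were at least 2 higher in the lactating cow's ovary and 19 in the dry cow's, against 1.94% and 2.92% of the 13065 genes. The rule uses the mean of the ovaries, so a gene high in one of them alone can pass, and these counts describe the set and support nothing. The most abundant had 14440 and 1037 FPKM in the ovaries, against 665 and 768 FPKM in the uteri. The ovary of the dry cow was near the uteri there, and the gene missed the rule in that cow.

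By the same rule, 40 genes were enriched in the uterus, and 18 of them are uterus-high genes. They held 0.204% and 0.569% of the FPKM of the ovaries of the lactating and the dry cow, against 4.75% and 1.68% of that of the uteri. Of the 40, 13 were at least 2 higher in the lactating cow's uterus and 1 in the dry cow's, with a median difference of 1.31. Of the 13055 genes at 1 FPKM or more in either uterus, 84 and 80 were so. The rule on the mean lets a gene high in 1 uterus alone pass, so these counts describe the set and support nothing. The most abundant had 613 and 1723 FPKM in the ovaries, against 14171 and 4275 FPKM in the uteri. The next had 496 and 1929 FPKM in the ovaries, against 9001 and 3729 FPKM in the uteri. In both, the uterus of the lactating cow was highest and her ovary lowest, with the dry cow's libraries between. Between the ovaries, 28 of the 40 were higher in the dry cow, 12 were listed at 0 in both and 0 were higher in the lactating cow. Genes at large leaned the same way, with a median of -0.15 over 13065 genes. That lean depended on scaling, as the median was -0.0065 after quantile normalization and -0.037 after rescaling to the same summed FPKM. Of the 13065 genes, 1858 were at least 1 higher in the dry cow's ovary and 1019 in the lactating cow's. The 28 of the 40 were counted at any difference, however small, so these counts are not on a like limit. The dry cow's ovary also held the traces given above, and their part in this count was not tested.

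**Figure D5:**
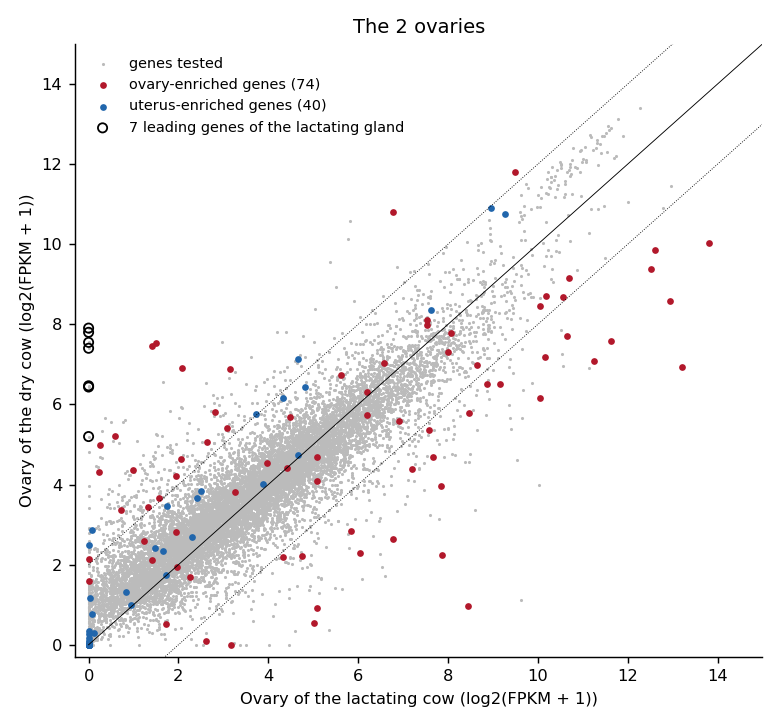
Level of each gene in the ovary of the lactating cow (horizontal) and of the dry cow (vertical), as log2(FPKM + 1), with the diagonal and dotted lines 2 above and below it. The 74 ovary-enriched genes (red) spread to both sides, 28 past the lower and 19 past the upper dotted line. The 40 uterus-enriched genes (blue) lie on the diagonal or above it, with 28 higher in the dry cow and 12 at 0 in both. Genes at large also leaned toward the dry cow, with a median of -0.15 over 13065 genes, which was -0.0065 after quantile normalization. The 7 leading genes of the lactating gland (open circles) stand at 0 on the horizontal axis.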

How the data were processed

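TruSeq libraries of total RNA were read from both ends over 150 bases, per the labels' protocols. Trimmomatic 0.39, STAR, Cufflinks and assembly UMD3.1 appear in the submitters' processing notes, without order, and their settings and annotation are not given in the sources used here. FPKM were deposited by the authors in 1 table, of which 47 columns matched a sample by name, while 4 did not and were left aside. A muscle column spells its tissue code 1 letter longer than the title. Counts are not used here, so depth is unknown and no counting interval was computed. Low genes are understated on the log2(FPKM + 1) scale.

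Values were taken as log2(FPKM + 1), for genes that reached 1 FPKM in 2 or more of the 4 libraries. Ovary minus uterus was taken within each cow, and limma 3.58.1 (R 4.3.3, intensity trend, Benjamini-Hochberg adjustment) compared the organs over 47 libraries. Simulated data, drawn with the spread shared by all labels, were fitted beforehand. They could not check whether the SE and adjusted p are too small for ovary and uterus. Libraries are paired because they share a cow, per the titles. Same-cow deviations of ovary and uterus had a Pearson correlation of 0.20 across genes. Tables were made with pandas 2.3.3 and numpy 2.4.6 in Python 3.11.15, and plots with matplotlib 3.10.9. The alternatives were another pseudocount, filters, quantile normalization, rescaling, other differences, cows left out, and cow as a block.

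Of the identifiers, 0 matched a symbol, since the reference table (37063 genes, ARS-UCD2.0) pairs none with the deposited identifiers. The 24 lists of markers and pathways, and promoter sequences, could therefore not be applied. The rule then allowed at most 2 identifiers per direction, those with the largest smaller difference among genes past 2 in both cows and called by limma. Other genes are described by rank, and those below the leading ranks were chosen after their values were seen. The comparison and the lists were chosen with earlier results of these data known.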

Additional observations from a re-analysis of the deposited data

Results flagged for a closer look

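The effect of the organ ran in opposite directions in the 2 cows for 2 genes, which were at least 2 higher in ovary in the lactating cow and at least 2 higher in uterus in the dry cow on the log2(FPKM + 1) scale. With 1 library per cow and organ, the difference between the cows was not tested. The differences were 2.24 in the lactating cow and -2.87 in the dry cow for one gene, and 3.71 and -2.06 for the other. The libraries behind the first were the uteri, at 1.43 and 42.3 FPKM, and behind the other the ovaries, at 15.2 and 0 FPKM.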

How the results depend on the processing

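Of 54 alternative counts for 6 results, 26 lay within 1.5 times the reported count and 28 beyond. Limma calls were 227 toward ovary and 167 toward uterus with 1 FPKM required in all 4 libraries, 1202 and 1100 at a difference of 1, 124 and 100 at a difference of 3, and 278 to 578 and 225 to 544 with a cow left out. With a pseudocount of 0.1 FPKM, 594 were called toward uterus. The 4 libraries alone gave 34 and 40 calls, and with the replicate block 107 and 136. With the block over 46 libraries they were 347 and 332, so it moved no count of that fit by over 1.5 times. Genes past the limit in both cows numbered 241 toward ovary and 342 toward uterus with the pseudocount of 0.1, 81 and 69 with 1 FPKM in all 4 libraries, 618 and 681 at a difference of 1, and 52 and 43 at 3. Between the ovaries, 164 genes were past the limit toward the lactating cow and 173 toward the dry cow with 1 FPKM in all 4 libraries, 1019 and 1858 at a difference of 1, and 85 and 112 at 3. The pseudocount of 0.1 gave 958 in the dry cow. Stricter filters test fewer genes, and the cause of the other changes was not tested.

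Scaling changed none of the 6 counts by over 1.5 times. Quantile normalization kept 132 of the 142 and 152 of the 165 members. It moved the median difference between the ovaries by 0.15, to -0.0065, and gave 266 genes toward the lactating cow and 292 toward the dry cow. Rescaling kept 139 and 163, with a median difference between the ovaries of -0.037. The 4 genes printed by identifier kept their direction and their limma call in each alternative that tested them, except that ENSBTAG00000006934 had an adjusted p of 0.0649 in the 4 libraries without the block. The count of the dry cow's ovary without genes at least 100 times higher elsewhere was added after seeing the data. The depth in fragments is unknown, so levels listed at 0 set no lower limit.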
